A study of Homo sapiens with 6 samples.

Results

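The MAP4K and TAO kinases are serine/threonine kinases of the Ste20 family, and the transcripts of 10 of them were followed here: MAP4K1, MAP4K2, MAP4K3, MAP4K4, MAP4K5, MINK1, TNIK, TAOK1, TAOK2 and TAOK3. The genes were chosen by symbol, as the kinases that act on LATS, and all 10 were found among the 35793 genes of the table. All 10 were also among the 15536 genes with a mean of at least 10 normalized counts, which were the genes tested. RNA had been sequenced from cardiomyocytes grown from WTC11, an established line of human induced pluripotent stem cells, at day 15 of differentiation. The wild-type group (WT) was unedited WTC11, and the knockout group (STK25KO) was a derivative of the same line made homozygous for a loss of STK25 with CRISPR/Cas9. Each group had 3 biological replicates and no treatment. The knockout was 1 line, so the edit and any other difference between the lines cannot be told apart, and the labels do not say whether replicates came from separate differentiations.

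The Hippo pathway limits growth through the kinases LATS1 and LATS2, which phosphorylate the coactivators YAP and TAZ and keep them out of the nucleus. LATS is switched on by the kinases STK3 and STK4 and, in parallel, by the MAP4K kinases, while TAO kinases act on both STK3/STK4 and LATS. STK25, the targeted gene, is itself a Ste20 kinase, has been described as an activator of LATS, and belongs to the STRIPAK phosphatase complex, which holds several of these kinases in check. MAP4K and TAO kinases also feed the JNK and p38 stress cascades, and MAP4K4 is known for its part in cardiomyocyte death under oxidative stress. MAP4K4, MINK1 and TNIK are close relatives, called the MAP4K4 group here, and TAOK1, TAOK2 and TAOK3 form the TAO kinases.

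The kinase domains of these genes are related, and the coding sequences were compared first to see how much sequence they share, as reads of one might be counted for another. The stretch below codes for part of the activation segment of the kinase domain, the longest stretch that MINK1 and MAP4K2 share letter for letter (31 bases). It is shown for every kinase as its best ungapped match in the longest coding sequence of GENCODE 29 (GRCh38), with capitals where a base differs from MINK1.
MINK1: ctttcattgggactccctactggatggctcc
TNIK: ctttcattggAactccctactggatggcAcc
MAP4K4: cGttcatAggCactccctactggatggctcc
MAP4K2: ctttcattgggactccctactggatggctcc
MAP4K1: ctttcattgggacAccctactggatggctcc
MAP4K3: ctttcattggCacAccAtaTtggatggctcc
MAP4K5: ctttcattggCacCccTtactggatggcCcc
TAOK3: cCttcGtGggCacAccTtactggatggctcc
TAOK2: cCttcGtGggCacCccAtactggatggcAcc
TAOK1: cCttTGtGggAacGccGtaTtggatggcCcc

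MAP4K1 differed from MINK1 at 1 of the 31 bases, TNIK at 2, MAP4K4 at 3, and MAP4K3 and MAP4K5 at 4 each. The TAO kinases were farther away, with 6 differences in TAOK3, 7 in TAOK2 and 9 in TAOK1. In the MAP4K4 group the stretch lay within 1 exon, exon 7, at chr17:4885534-4885564 on the plus strand for MINK1, chr3:171188751-171188781 on the minus strand for TNIK and chr2:101831772-101831802 on the plus strand for MAP4K4. In the other 7 kinases an exon junction split it after base 22. MAP4K2, for example, carried it at chr11:64801111-64801132 and chr11:64801023-64801031 on the minus strand (exons 8 and 9), and TAOK1 at chr17:29480460-29480481 and chr17:29482197-29482205 on the plus strand (exons 7 and 8).

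The longest coding stretch shared by any pair was 35 bases, between MAP4K4 and TNIK, also within the kinase domain.
MAP4K4 and TNIK: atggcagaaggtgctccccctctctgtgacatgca
In MAP4K4 it lies at chr2:101834445-101834463 and chr2:101835900-101835915 on the plus strand, and in TNIK at chr3:171177326-171177344 and chr3:171175315-171175330 on the minus strand, across exons 8 and 9 in both. Over all annotated transcripts, counted on either strand, at most 0.311% of a kinase's 31-base words were found in another of the 10 (MAP4K1), and none for MAP4K3 and TAOK2. Words shared with genes outside the set were more frequent, up to 9.11% in MAP4K1, 5.52% in TAOK1 and 4.27% in MAP4K5, and 0% in MAP4K3 and TNIK. The gene sharing most words with MAP4K5 was ATL1, a GTPase of the endoplasmic reticulum, with 117. ATL1 was at 74.0, 99.0 and 130.1 in WT and at 353, 479 and 561 in the knockout (normalized counts), a change past the test (log2 fold change 2.20, limma adjusted p = 0.00543), and whether its reads reach MAP4K5 was not tested. MINK1 shared 258 words with CHRNE, a subunit of the muscle acetylcholine receptor, which had 0 reads in 5 libraries and 4.44 normalized counts in the other.

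The libraries held 22443904 to 53224112 reads assigned to genes. Normalized counts are those reads divided by 1 factor per library, and differences are given as log2 fold changes, knockout minus WT, of log2(normalized count + 1). Means are given ± SD over the 3 libraries of a genotype (n = 3). STK25 itself, read first to check the labels, went from 8119 ± 1168 to 3720 ± 251. Its log2 fold change was -1.12 (SE 0.19, limma adjusted p = 0.00903, or 0.0611 without WT replicate 1). Cardiomyocyte marker transcripts were abundant in every library. The 12 markers, from TNNT2 to ACTC1, summed to 1583160 to 1653500 normalized counts in WT and 2433100 to 2755430 in the knockout. ACTC1 alone went from 647518 ± 14937 to 1354020 ± 92618, while 4 of the 12 (TNNI1, MYH6, RYR2 and PLN) were lower in the knockout. In limma 8 of the 12 had an unadjusted p under 0.05, MYH6 (-1.14) and PLN (-0.76) among them, against 27.5% of all tested genes. At an adjusted p under 0.05 limma called 0 higher and 1 lower (PLN), edgeR 1 higher and 2 lower, and DESeq2 6 higher and 2 lower. Some markers of other cells passed the test in limma too, where 12.8% of all tested genes did. The 8 smooth muscle markers summed to 94722 to 105085 in WT and 502225 to 552609 in the knockout, with 4 higher and 0 lower past the test in limma and 5 higher and 1 lower in DESeq2. ACTA2 alone went from 49466 ± 3691 to 389103 ± 8357. MYOCD (log2 fold change -0.63) and RGS5 (-0.13) went the other way, lower in the knockout without overlap. The 10 fibroblast markers summed to 12981 to 26550 in WT and 8414 to 16844 in the knockout. Of 9 tested, 4 were higher and 1 lower past the test (55.6%), so the sum hides opposite changes. COL1A2 fell from 7514 ± 2839 to 240 ± 124, and COL1A1, not past the test, from 10227 ± 3485 to 4792 ± 1659. COL3A1, DCN, TCF21 and THY1 rose. Neural (3 higher of 6 tested), endothelial (1 higher of 6), epicardial (1 higher and 1 lower of 7), pluripotency (1 higher of 7) and liver markers (2 lower of 6) also held genes past the test, and the shares of endothelial (16.7%) and pluripotency markers (14.3%) were near that of all genes. FAP (fibroblast) and FOXA2 (endoderm) were at 0 in every library. In bulk RNA a change in the number of cells of a type and a change in the RNA per cell cannot be told apart, and the part of these cells in the values below was not tested.

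None of the 10 kinases differed between the genotypes past an adjusted p of 0.05 in limma, where 12.8% of all tested genes did (5.97% with the higher value in the knockout and 6.79% with the lower). Only TAOK2 (1 kinase) had an unadjusted p under 0.05, against 27.5% of all tested genes. On the recovered reads edgeR and DESeq2 also called 0 kinases (1 and 2 at an unadjusted p under 0.05), where they called 12% and 20.7% of all genes. In the knockout 4 kinases had the higher fitted value and 6 the lower, with a median log2 fold change of -0.17, against 0.0052 over all genes tested. The 3 TAO kinases were on the higher side and the 3 kinases of the MAP4K4 group on the lower side. TAOK1 changed sign with equal library totals, without WT replicate 3 and without knockout replicate 1, and MINK1 without WT replicate 3. The sizes that the data leave possible differ by gene: for 5 of the 10 (MAP4K3, MAP4K4, MAP4K5, MINK1 and TAOK3) the 95% interval of the fit, unadjusted, lay within a 2-fold change in either direction.

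**Figure D1:**
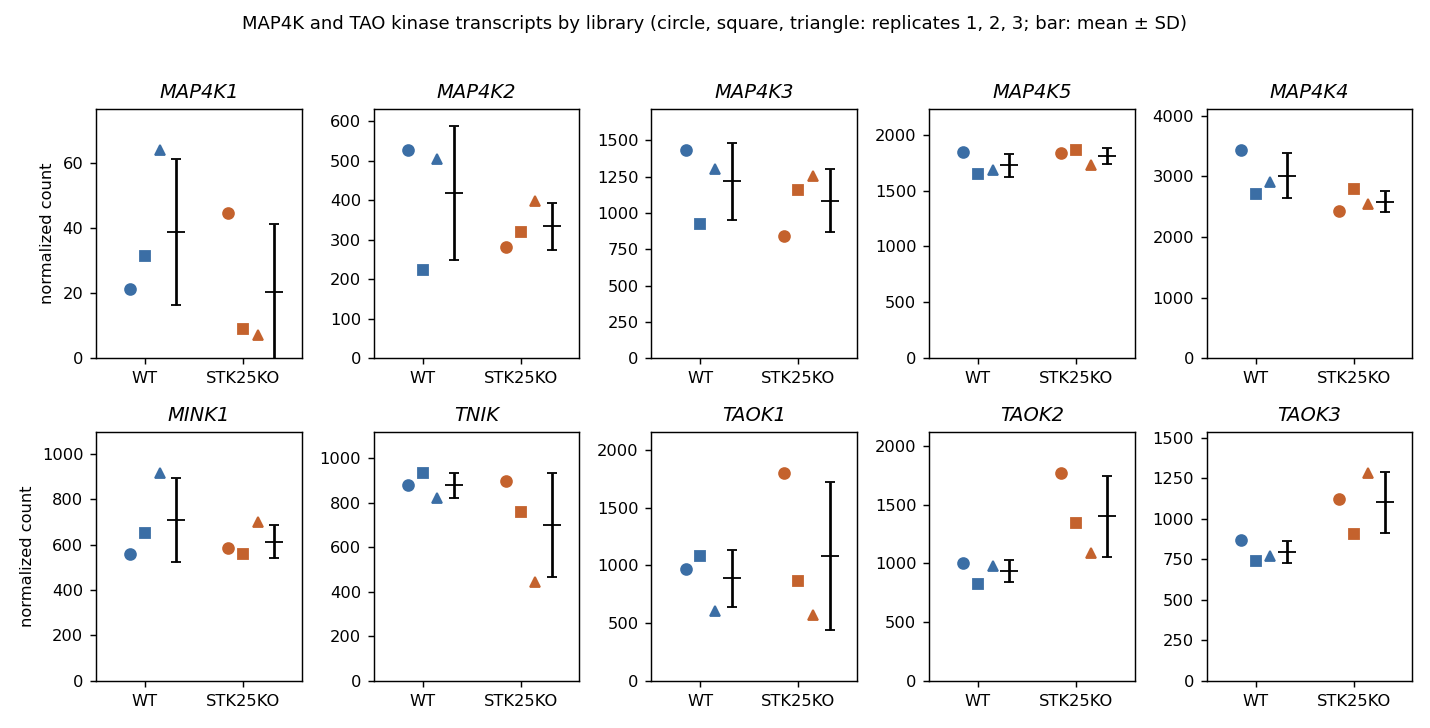
Normalized counts of the 10 kinases in each library, WT in blue and STK25KO in orange, with the mean and SD of each genotype as a black bar; each panel has its own axis from 0, and the lower bar of MAP4K1 in the knockout is cut at 0. MAP4K5 is nearly level over the 6 libraries, and TAOK2 and TAOK3 are the genes whose genotypes do not overlap.

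MAP4K5, an activator of JNK signalling, was the most even of all. Its WT values were 1844, 1651 and 1685 normalized counts, beside 1837, 1860.2 and 1732 in the knockout. The genotypes overlapped, and the highest library was 1.13 times the lowest. Its log2 fold change was 0.07 with a 95% interval from -0.33 to 0.47 (limma adjusted p = 0.848). Its SD within genotypes, 0.0714 on the log2 scale, was below that of all but 1.01% of the genes tested. With equal library totals the log2 fold change was -0.21, where the median of all genes moved to -0.28.

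MAP4K3, which signals amino acid supply to mTORC1, had 1430.4, 922 and 1300.0 normalized counts in WT and 839, 1158 and 1253 in the knockout. The genotypes overlapped, and the lowest library of each was WT replicate 2 and knockout replicate 1. The log2 fold change was -0.16, from -0.76 to 0.43 (limma adjusted p = 0.742), and 0.0095 without knockout replicate 1. MAP4K2, which links the TNF receptor adaptor TRAF2 to JNK, had 526, 223 and 505 in WT and 282, 319.9 and 398 in the knockout. The same 2 libraries were the lowest of their genotypes, and the knockout values lay inside the WT range. Its log2 fold change was -0.24, from -1.11 to 0.63 (limma adjusted p = 0.743), and ran from -0.64 without WT replicate 2 to -0.024 without WT replicate 1.

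MAP4K1, a kinase of blood cells that dampens T cell receptor signalling, had few reads. Its libraries held 21.1, 31.2 and 63.8 normalized counts in WT and 44.5, 8.92 and 7.11 in the knockout, which came from 8 to 100 reads per library. Knockout replicates 2 and 3 were lower than every WT library, while knockout replicate 1 lay inside the WT range. The log2 fold change was -1.22 with an interval from -3.08 to 0.64 (limma adjusted p = 0.382), and -2.0 without knockout replicate 1 (limma adjusted p = 0.0946). Its SD within genotypes exceeded that of 91.4% of tested genes. Blood cell markers were also low: 10 of them together summed to 356 to 777 normalized counts in WT and 460.4 to 693 in the knockout, with 0 of 7 tested past the threshold in limma, edgeR or DESeq2 (0, 0 and 1 at an unadjusted p under 0.05). The T cell marker CD3E had at most 3 reads in any library, and the leukocyte gene PTPRC from 27.2 to 82.6 normalized counts.

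In the MAP4K4 group, MAP4K4 was the kinase with the most reads, 1915 to 4550 per library. Its normalized counts were 3430.2, 2708 and 2902 in WT and 2434, 2785 and 2537 in the knockout. Knockout replicate 2 lay above the lowest WT library, so the genotypes overlapped by this 1 library. The log2 fold change was -0.22, from -0.64 to 0.21 (limma adjusted p = 0.503), and it was below 0 under all 19 alternatives tried, from -0.50 to -0.12, with adjusted p-values in limma, edgeR and DESeq2 from 0.220 to 0.846. With equal upper quartiles the genotypes of MAP4K4 did not overlap (-0.19). MINK1, a regulator of the cytoskeleton and of JNK, had 559, 651 and 914 in WT and 583, 558 and 699 in the knockout. The ranges overlapped, with a log2 fold change of -0.18, from -0.77 to 0.41 (limma adjusted p = 0.708), and 0.017 without WT replicate 3.

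TNIK, which binds TRAF2 and NCK and acts on the transcription factors of Wnt signalling, had 879, 933 and 824 normalized counts in WT and 899, 757 and 445 in the knockout. Knockout replicate 1 lay within the WT range and knockout replicate 3 far under it. The log2 fold change was -0.39, from -1.06 to 0.29 (limma adjusted p = 0.446), and -0.089 without knockout replicate 3. With equal library totals the genotypes of TNIK no longer overlapped, and the log2 fold change was -0.67 (limma adjusted p = 0.171), where the median of all genes moved to -0.28.

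TAOK2 and TAOK3 were the kinases whose genotypes did not overlap as deposited, both higher in the knockout. That is 2 of 10, where 16.2% of all tested genes lay wholly higher and 33.4% were separated in either direction. TAOK2, which activates MAP2K3 and MAP2K6, the kinases upstream of p38, had 1001.4, 825 and 981 normalized counts in WT and 1768, 1342 and 1089 in the knockout. The knockout mean was 149.6% of the WT mean. This is a log2 fold change of 0.56, from 0.0087 to 1.11 (limma adjusted p = 0.175), and 0.37 without knockout replicate 1. An exact two-sided permutation test gave p = 0.1, the smallest that 3 against 3 values allow.

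TAOK3, which has been tied to p38 activation after DNA damage, had 869, 739.6 and 771 normalized counts in WT and 1119.9, 907 and 1282 in the knockout. Its lowest knockout library exceeded the highest WT library by a small margin. On the log2 scale the difference was 0.46, from -0.032 to 0.96 (limma adjusted p = 0.211; exact two-sided permutation p = 0.1). With equal library totals the genotypes of both genes overlapped, at log2 fold changes of 0.28 for TAOK2 and 0.18 for TAOK3, against -0.28 for the median gene.

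TAOK1, a regulator of microtubules and an activator of STK3 and STK4, was spread most among the TAO kinases. It had 969.7, 1083 and 608 normalized counts in WT and 1797, 865 and 574 in the knockout, a 3.13-fold range. Knockout replicate 1 was above all other libraries and knockout replicate 3 below them all. TAOK1 had a log2 fold change of 0.16, from -0.84 to 1.16 (limma adjusted p = 0.858), which changed sign without knockout replicate 1 (-0.29), without WT replicate 3 (-0.090) and with equal totals (-0.12).

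**Figure D2:**
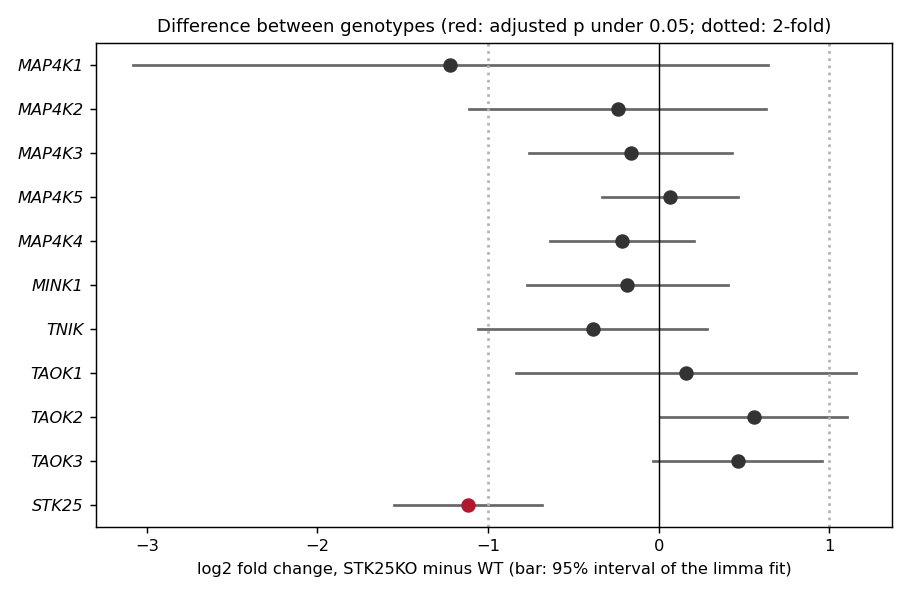
Log2 fold change between STK25KO and WT for each kinase and for STK25, with the 95% interval of the limma fit; dotted lines mark a 2-fold change. STK25, in red, is the gene past an adjusted p of 0.05 at -1.12, and the intervals of MAP4K1 and TAOK1 are the widest of the 10 kinases.

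For 6 of the 10 kinases the deviation from the genotype mean had the same sign in WT replicate 2 and knockout replicate 1. These libraries were picked after the values were seen, and over all genes tested their deviations had r = 0.45, the highest of any WT and knockout pair. The share of all genes with the same sign was not computed, so the count cannot be read as a trait of the kinases. In WT replicate 2 and knockout replicate 1, MAP4K2, MAP4K3 and MAP4K4 were the lowest of their genotype, and TAOK1 and TNIK the highest. MAP4K3 deviated from its genotype mean by -0.38 and -0.35 (log2) in these libraries, and TAOK1 by 0.33 and 0.90. The other 4 deviated in opposite directions: TAOK2 by -0.18 and 0.37, MAP4K1 by -0.16 and 1.56, TAOK3 by -0.097 and 0.036, and MAP4K5 by -0.063 and 0.022. These 2 libraries differed from the others by transcript length. The 3029 tested genes with a longest coding transcript under 2000 bases had median deviations of 0.36 in both, against -0.28 to -0.064 in the other 4 libraries. None of the kinases is in this class, as their longest coding transcripts have 2700 bases (MAP4K1) or more. The part of this difference between libraries in the kinase values was not tested. Without both libraries the log2 fold changes were -0.18 for MAP4K3, -0.53 for MAP4K2, -0.25 for MAP4K4, 0.026 for MAP4K5, -2.08 for MAP4K1, -0.19 for MINK1, -0.55 for TNIK, -0.12 for TAOK1, 0.29 for TAOK2 and 0.40 for TAOK3. None of these passed in limma, with a lowest adjusted p of 0.0713 (MAP4K1), although 4706 genes in all were called in that fit.

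**Figure D3:**
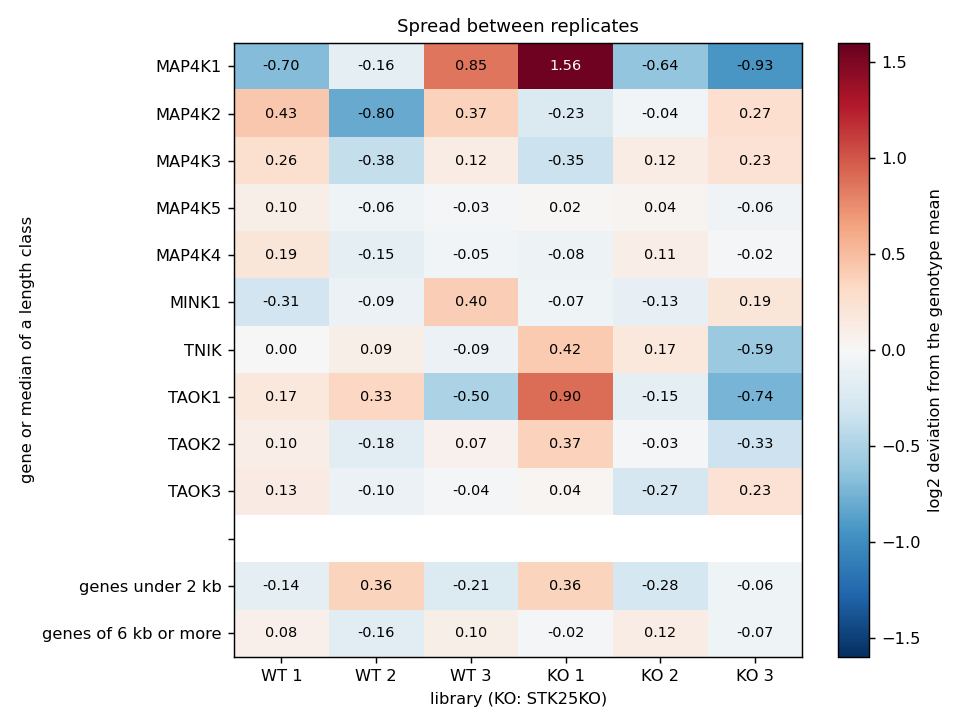
Deviation of each kinase from its genotype mean in each library, on the log2 scale, over the medians of short (under 2 kb) and long (6 kb or more) transcripts. Short transcripts are higher in WT replicate 2 and knockout replicate 1 (0.36 each), and long ones are at -0.16 and -0.022 there. In these libraries MAP4K2, MAP4K3 and MAP4K4 are the lowest of their genotype, and TAOK1 and TNIK the highest.

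Levels of different genes were compared per kilobase of the longest protein-coding transcript. In WT the order was led by MAP4K5 (397 ± 23.7 normalized counts per kilobase) and MAP4K4 (394 ± 48.9), whose ranges overlapped. MAP4K3 followed at 279 ± 60.6, below MAP4K4 in every library. Below the range of MAP4K3 came TAOK2 (181 ± 18.7), TAOK3 (181 ± 15.3), MINK1 (143 ± 37.2) and TNIK (126 ± 7.86), each overlapping its neighbour. TAOK1 (71.5 ± 20.003) and MAP4K2 (58.2 ± 23.5) were lower and overlapped each other, and MAP4K1 was last at 14.3 ± 8.25. In the knockout TAOK2 and TAOK3 stood next after MAP4K5 and MAP4K4, at 271 ± 66.4 and 252 ± 42.8, ahead of MAP4K3 at 248 ± 49.7, with overlapping ranges. The place of MAP4K4 depends on the transcript taken, since its longest transcript has 7640 bases and the longest one tagged as principal 3792.

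Among 29 Ste20 kinases ranked by the WT level per kilobase, MAP4K5 and MAP4K4 stood at places 5 and 6, behind STK25, STK26, STRADB and STK39. STK25 itself was at 1758 ± 253 in WT and 805 ± 54.4 in the knockout, and so had a higher level per kilobase than any of the 10 kinases in both genotypes. STK3 (370 ± 51.1 in WT) and STK4 (83.2 ± 13.9), the kinases that act on LATS in parallel, lay within the range of the 10 in WT. In the knockout the mean of STK3, 466 ± 134, was above that of MAP4K5, 416 ± 15.7, with overlapping ranges.

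Shares within a library do not depend on how the library was scaled. Of the summed level per kilobase of the 10 kinases, the TAO kinases held 23.6%, 24.9% and 22.1% in the WT libraries and 37.5%, 28.8% and 30.02% in the knockout libraries. The MAP4K4 group held 34.6%, 37.1% and 36.4% in WT and 28.6%, 31.4% and 29.3% in the knockout. Neither group's genotypes overlapped: the mean share of the TAO kinases was 8.58 percentage points higher and that of the MAP4K4 group lower (a difference of -6.23 points) in the knockout, each with an exact two-sided permutation p of 0.1, the smallest possible here. The shares in a library add up to the whole. A higher share of the TAO kinases therefore leaves a lower share for the rest, and these differences are not independent results. Within the groups, TAOK2 went from 9.81% to 14.3%, TAOK3 from 9.81% to 13.3% and MAP4K4 from 21.4% to 17.9%, each without overlap, while TAOK1, MINK1 and TNIK overlapped. Lack of overlap is frequent in these data: as normalized counts, 33.4% of all tested genes were separated in either direction. The difference for the TAO kinases was 5.87 points without knockout replicate 1, and that for the MAP4K4 group -3.86 points with median in place of longest transcript lengths, which for MAP4K5 and TAOK3 fell on fragments under 1 kb.

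**Figure D4:**
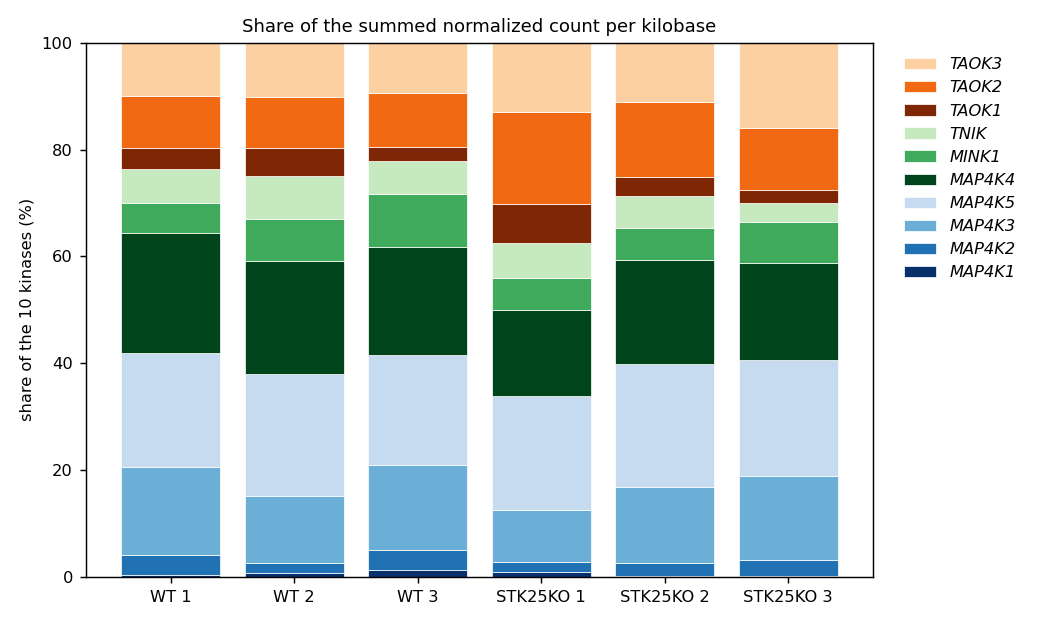
Share of each kinase in the summed normalized count per kilobase of the 10 kinases, by library. The TAO kinases (orange shades) take 22.1% to 24.9% in WT and 28.8% to 37.5% in the knockout, and the MAP4K4 group (green shades) 34.6% to 37.1% and 28.6% to 31.4%.

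In the genome the 10 genes lie on 8 chromosomes. MAP4K3 (chromosome 2, 39249266 to 39437312) and MAP4K4 (chromosome 2, 101696850 to 101894689) share a chromosome with STK25, as MINK1 (chromosome 17, 4833388 to 4898061) and TAOK1 (chromosome 17, 29390464 to 29551904) share another. TAOK2 lies on chromosome 16 from 29973641 to 29992261 and TAOK3 on chromosome 12 from 118149801 to 118372945. These positions are those of GENCODE 29 on GRCh38, the build named in the submitters' processing notes.

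The next question was whether genes that act with these kinases passed the test, which none of the kinases did. Among the 9 core Hippo kinases and adaptors 0 passed in limma, with a median of 0.30. With equal totals this median was 0.014, where the median of all genes moved to -0.28. Of the 7 effectors 0 passed, with a median of 0.04. At an unadjusted p under 0.05 there was 1 gene in each list, STK38L and TEAD1, and edgeR called 0 and DESeq2 1 in each. STK38L, an NDR kinase related to LATS, had a log2 fold change of 1.10 (limma adjusted p = 0.0629) and TEAD1, a DNA-binding partner of YAP, 0.85 (limma adjusted p = 0.0602). LATS1 went from 340 ± 82.3 to 318 ± 151 and LATS2 from 380 ± 99.6 to 556 ± 167, both with overlap. Beside the 12.8% of all tested genes, 1 of 15 tested upstream scaffolds and regulators (6.67%) passed: AMOTL1, an angiomotin that binds YAP, rose from 110, 64.7 and 122 to 453, 516 and 316 normalized counts (log2 fold change 2.12, SE 0.36, limma adjusted p = 0.00878). The call of AMOTL1 held whichever library was left out, with adjusted p-values up to 0.0366.

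Of 20 tested YAP and TAZ target genes 4 rose and 0 fell past the test in limma and edgeR, where 5.97% of all genes were called higher in limma, and DESeq2 called 5 higher and 2 lower. The median of the list was 0.46, and 10 of its genes had an unadjusted p under 0.05 (27.5% of all tested genes did), among them AXL (-1.01), FJX1 (-1.89) and DOCK5 (-0.95), which had lower values in the knockout. CCN2, a matrix-associated growth factor, was at 7401, 5480.2 and 7303 normalized counts in WT and 26967, 46067 and 39025 in the knockout (log2 fold change 2.45, limma adjusted p = 0.00126). CRIM1, a membrane protein that binds BMPs, rose by 2.46 and the growth factor TGFB2 by 1.17 (limma adjusted p = 0.00613 and 0.0149). IGFBP3, which binds insulin-like growth factors, rose by 0.88 (limma adjusted p = 0.0158). CCN2 and CRIM1 passed whichever library was left out. TGFB2 and IGFBP3 were over the threshold without WT replicate 3 and without knockout replicates 2 or 3. IGFBP3 was also over it without WT replicate 1 (limma adjusted p up to 0.0872 over these fits). Neither gene passed with equal totals or with the replicate number as a block. CCN2 and TGFB2 are also expressed by smooth muscle, whose summed markers were higher in the same libraries; the part of these cells was not tested.

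The adaptors and GTPases that bind MAP4K kinases were tested as 18 genes, of which 2 rose and 1 fell past the test, with a median of 0.24. That is 16.7% of the list, near the 12.8% of all tested genes. The RAP2 GTPases, which recruit and activate MAP4K4, MINK1 and TNIK, moved in opposite directions. RAP2C had 838, 676 and 734 normalized counts in WT and 1214, 1628 and 1481 in the knockout (log2 fold change 0.94, SE 0.21, limma adjusted p = 0.0254). RAP2B had 352, 347 and 445 in WT and 189, 174 and 211 in the knockout (-0.99, SE 0.25, limma adjusted p = 0.0423). RAP2A, with 819 ± 120.1 and 910.1 ± 266, overlapped between genotypes. GRB2, an adaptor of receptor tyrosine kinases, rose from 5427 ± 143 to 9024 ± 390.1 (log2 fold change 0.73, limma adjusted p = 0.0255). RAP2B passed in none of the 6 fits without 1 library, RAP2C only without knockout replicate 1, and GRB2 only without WT replicate 2 or knockout replicate 1. The largest of these limma adjusted p-values was 0.164. RAP2C and GRB2 did not pass with equal totals (0.66 and 0.45). With the replicate number as a block RAP2B, RAP2C and GRB2 all failed. Besides the fits without 1 library, GRB2 failed in 4 alternatives and RAP2B in 3.

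In the JNK and p38 cascades, downstream of MAP4K and TAO kinases, 8 genes passed, 2 higher and 6 lower. These were 33.3% of the MAP3K list, 18.2% of the JNK list and 28.6% of the p38 list, beside 12.8% of all tested genes (5.97% higher and 6.79% lower). Among 12 tested MAP3K kinases MAP3K13 and MAP3K9, which activate JNK, rose by 2.25 and 1.87 (limma adjusted p = 0.00918 and 0.0366), while MAP3K12 (-1.57, limma adjusted p = 0.0263) and MAP3K6 (-1.36, limma adjusted p = 0.0219) fell. MAP3K13 went from 222, 526 and 244 to 2012, 1144 and 1354 normalized counts, and its close relative MAP3K12 from 229.6, 209 and 317 to 78.8, 62.4 and 116. MAPK10, the JNK isoform of heart and brain, went from 879, 680.2 and 779 to 242, 299.8 and 348 (log2 fold change -1.40, limma adjusted p = 0.0103). The ubiquitous isoforms MAPK8 (-0.084, limma adjusted p = 0.871) and MAPK9 (0.39, limma adjusted p = 0.232) did not pass. JUN, the transcription factor that JNK phosphorylates, went from 2071 ± 218 to 1108 ± 150.4 (-0.90, limma adjusted p = 0.0237). Of 7 tested genes of the p38 cascade, MAPK13 (-1.57, limma adjusted p = 0.0266) and MAP2K3 (-0.99, limma adjusted p = 0.0486), a direct target of TAO kinases, fell. MAP3K13 passed whichever library was left out, and MAPK10 except without WT replicate 1 (limma adjusted p = 0.0652). MAP2K3 passed in no fit without 1 library, MAP3K6 and MAPK13 only without knockout replicate 1, and JUN only without WT replicate 2 or knockout replicate 1. MAP3K9 was lost without WT replicate 3 or knockout replicates 2 or 3 and MAP3K12 without WT replicates 1 or 3 or knockout replicate 2, and the largest limma adjusted p over these genes was 0.176. MAP3K9 did not pass with equal totals. Besides the fits without 1 library, MAP2K3 failed in 6 alternatives, edgeR among them. With the replicate number as a block, MAP3K13 was the only one of the 8 genes to pass.

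Of the 17 tested STRIPAK subunits 2 rose, with a median of 0.10. This share, 11.8%, was close to the 12.8% of all tested genes. SIKE1, which sits with SLMAP in the complex, went from 1933, 2140.3 and 1963 to 7047, 4539 and 5059 normalized counts (log2 fold change 1.44) and passed whichever library was left out, with adjusted p-values in limma up to 0.0368. CTTNBP2, a cortactin-binding subunit (0.78), passed in limma without knockout replicate 1 and in no other fit without 1 library. It did not pass with equal totals or with the replicate number as a block. Among the 17 other Ste20 kinases tested, which include STK25, the targeted gene, 3 fell and 0 rose in limma (17.6%, beside 12.8% of all tested genes), while DESeq2 called 3 lower and 1 higher. The other 2 were the p21-activated kinases PAK3, from 57.9 ± 19.5 to 7.37 ± 2.80 (log2 fold change -2.83, limma adjusted p = 0.0170), and PAK6, from 192 ± 43.9 to 17.2 ± 19.4 (-4.52, limma adjusted p = 0.0481). PAK3 was over the threshold without WT replicates 1 or 3 or knockout replicate 3. PAK6 was over it without any 1 WT library or knockout replicate 3 (limma adjusted p up to 0.144). With the replicate number as a block neither passed. Besides the fits without 1 library, PAK6 failed in 8 alternatives, edgeR among them.

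**Figure D5:**
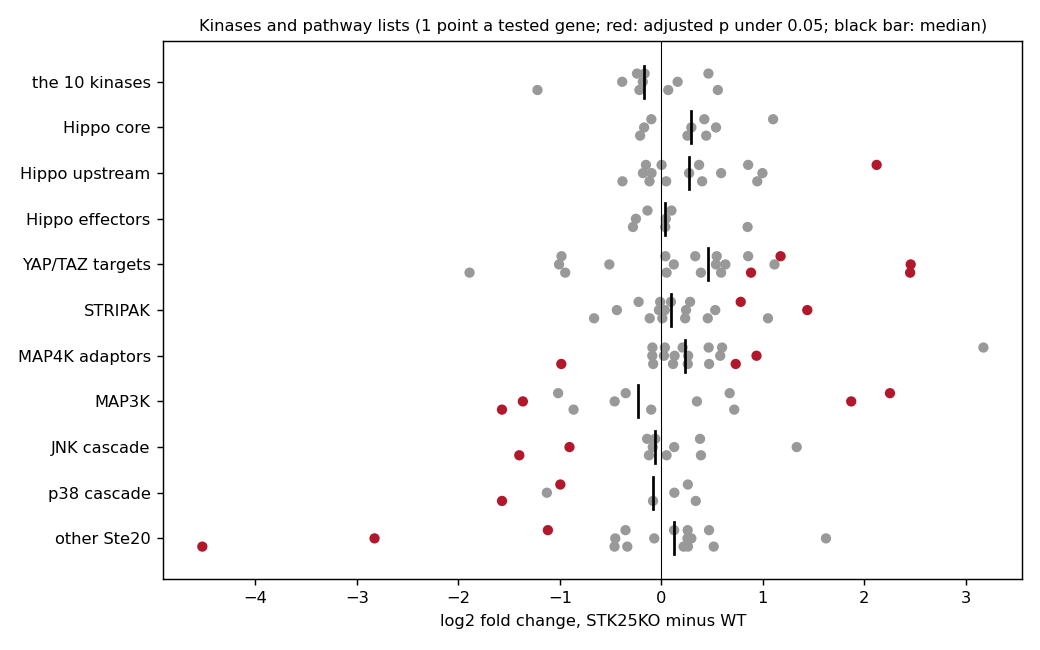
Log2 fold change of every tested gene in the 10 kinases and in each list, with genes past an adjusted p of 0.05 in red and the list median as a black bar. The 10 kinases hold no red point and span -1.22 to 0.56, while the list of MAP3K kinases holds 2 lower and 2 higher genes.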

How the data were processed

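Per the submitters' processing notes, the tools named were bcl2fastq 2.19, kallisto 0.44.0 and DESeq2 1.28.1, with the build GRCh38; their roles and the annotation are not given in the sources used here. Libraries were made with Clontech Ultra Low v4 and NexteraXT kits, per the labels' protocols. The deposited values are a signal, called normalized counts by the authors. In every column 100% of values were whole multiples of 1 step (tolerance 1e-06), so reads were recovered as value over step; kallisto estimates counts, so these may be rounded estimates. Columns were matched by the labels' descriptions, and 0 were unused. Depth is the reads per library.

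limma 3.58.1 (R 4.3.3; lmFit, eBayes with a trend, 6 libraries, no covariate) was run on log2(value + 1) of the genes averaging 10 or more, with Benjamini-Hochberg adjustment over all 15536 genes and a threshold of 0.05; p-values measure the spread between these samples. Alternatives were edgeR 4.0.16 and DESeq2 1.42.0 on recovered reads, pseudocounts of 0.1 and 10, no filter or a minimum mean of 50, equal upper quartiles, equal totals, quantiles, a replicate block, eBayes without a trend or robust, each library left out, and, chosen after seeing the data, 2 libraries left out and principal transcript lengths. The fits were tested on simulated data. Longest coding transcript lengths (GENCODE 29) replaced the planned median, which fell on fragments for MAP4K5 and TAOK3. Python 3.11.15 and matplotlib 3.10.9 drew the figures.

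The kinases and lists were chosen with earlier results of these data known. Named are all 10 kinases, STK25 and the list members past the threshold (at most 4 a list). Marker genes past it are given as counts, apart from PLN, ACTA2, COL1A2, COL3A1, DCN, TCF21 and THY1. STK38L, TEAD1, AXL, FJX1, DOCK5, LATS1, LATS2, RAP2A, MAPK8, MAPK9, CD3E, PTPRC, ACTA2, MYOCD, RGS5, ATL1, CHRNE, STK3, STK4, STK26, STRADB and STK39 were named after their values were seen. So were the markers ACTC1, TNNI1, MYH6, RYR2, COL1A1, COL1A2, COL3A1, DCN, TCF21 and THY1. LRRK1, which is no Ste20 kinase, was then taken off the list of Ste20 kinases. No kinase passed, so no genes of like pattern were named. Results for 1 further grouping of the kinases are not reported here.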

Additional observations from a re-analysis of the deposited data

How the results depend on the processing

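None of the 10 kinases was called under any of the 19 alternatives it was tested in; MAP4K1 was not tested at a minimum mean of 50. Their log2 fold changes kept their sign except for MAP4K5 with equal totals (-0.21), TAOK1 with equal totals (-0.12), without WT replicate 3 (-0.090), without knockout replicate 1 (-0.29) and without WT replicate 2 and knockout replicate 1 together (-0.12), MINK1 without WT replicate 3 (0.017) and MAP4K3 without knockout replicate 1 (0.0095). The cause of these changes was not tested. The number of genes called, 1982, was 3210 with DESeq2, 4706 without WT replicate 2 and knockout replicate 1, and from 792 (without WT replicate 1) to 2192 when 1 library was left out.

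With the replicate number as a block 798 genes were called, and STK25 (-1.12) had a limma adjusted p of 0.0684. Of the 21 list genes called in the main fit, markers left out, AMOTL1, CCN2, CRIM1, SIKE1 and MAP3K13 passed with the block. The others did not. Deviations from the genotype means had r = -0.23, -0.40 and 0.17 between same-numbered libraries. Taken from means of 3 libraries, these values are tied to each other and cannot tell whether same-numbered libraries shared a batch. The labels give a replicate number and name no batch. When 1 library was left out, STK25 ran from -1.24 to -1.05, MAP4K3 from -0.35 to 0.0095 and TAOK1 from -0.29 to 0.53; without WT replicate 2 and knockout replicate 1 STK25 had -1.28.

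Equal totals lowered the median of all genes to -0.28. They gave medians of -0.45 for the 10 kinases, -0.50 for the MAP4K4 group, 0.18 for the TAO kinases, 0.014 for core Hippo kinases, -0.0080 for upstream scaffolds, -0.24 for Hippo effectors, 0.18 for YAP and TAZ targets, -0.19 for STRIPAK, -0.51 for MAP3K kinases, -0.34 and -0.36 for the JNK and p38 cascades, -0.046 for MAP4K adaptors and -0.16 for other Ste20 kinases. The MAP4K4 group had -0.30 with quantile normalization and Hippo effectors -0.070 and the JNK cascade -0.052 without WT replicate 2 and knockout replicate 1. When 1 library was left out, medians ran from -0.26 to -0.030 for the 10 kinases, -0.34 to -0.17 for the MAP4K4 group, -0.0022 to 0.070 for Hippo effectors, 0.020 to 0.27 for STRIPAK, -0.42 to -0.067 for MAP3K, -0.035 to 0.21 for the JNK cascade and -0.030 to 0.28 for other Ste20 kinases. The share of the MAP4K4 group differed by -3.86 points with median lengths. MAP4K1 had 8 to 100 reads, so its relative counting error is the largest of the 10; the other kinases had at least 222 reads in every library.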
